A study of Mus musculus with 12 samples.

Results

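Expression of 7 genes for subunits of the GABA-A receptor was followed in the brain of newborn mice with and without the protein kinase KIS. They are Gabrb1 and Gabrb2 (beta subunits), Gabrg1 and Gabrg3 (gamma subunits), and Gabrd, Gabre and Gabrq, which encode the delta, epsilon and theta subunits. Members were taken by gene symbol from the exon array table, 7 of its 17550 genes, with 93 of its 221417 main probesets. A probeset is a group of short probes, usually 4, in 1 exon or part of it. Other subunits of the receptor enter only as neighbours and as a list.

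Total RNA came from whole brains of 12 newborn females, 6 KIS +/+ (wildtype) and 6 KIS -/- (KIS-ko), on 1 Affymetrix Mouse Exon 1.0 ST array per brain. KIS is encoded by Uhmk1, the gene knocked out, and both genotypes share a C57BL6/N background reached by 10 generations of backcross. The brains form 6 pairs of littermates, each with 1 wildtype and 1 KIS-ko pup, and the genotypes were compared within litters. The study asked how loss of KIS changes transcript levels and splicing in the neonate brain.

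GABA-A receptors are chloride channels of the cys-loop family, built from several subunits around a pore and opened by the inhibitory transmitter GABA. Most hold alpha and beta subunits, between which GABA binds, with a gamma subunit that brings in the benzodiazepine site and anchors the receptor at synapses. The delta subunit replaces gamma in receptors outside synapses that carry tonic currents, and epsilon and theta are found chiefly in hypothalamus and in monoaminergic nuclei of the brainstem. In the immature brain GABA can depolarize neurons, since their chloride content is high, and the set of subunits changes as the brain matures.

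Gabrg1 is the member for which the study designed Q-PCR primers, and they are shown because they separate spliced from unspliced transcripts. Capitals mark the 21 bases that both forward primers share, at the end of exon 1.
Gabrg1_f1, exon 1 to exon 2: AACCCTGCATCTGGGAAACTGtgt
Gabrg1_f2, exon 1: tgttactAACCCTGCATCTGGGAAACTG
Gabrg1_r1, exon 2: tggtgccaagacccatgttttgt
Gabrg1_r2, intron 1: acactgcacatgtcccggaaaaa
The first forward primer runs 3 bases past the shared stretch into exon 2, so that it fits spliced RNA, and the primer in intron 1 reads unspliced RNA. The values given here come from exon probesets, and Q-PCR values are not used.

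The stretches before the start sites differed widely in base composition, and 4 are shown, the one with the fewest CG pairs among the members and the 3 with the most in the full window. They are the 100 bases immediately before the RefSeq start in GRCm38.p6, read on the strand of the gene, with each CG pair in capitals.
Gabrg1, chr5:70842618-70842717, minus strand: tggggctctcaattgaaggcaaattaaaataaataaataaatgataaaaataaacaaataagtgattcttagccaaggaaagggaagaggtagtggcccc
Gabrb1, chr5:71657821-71657920, plus strand: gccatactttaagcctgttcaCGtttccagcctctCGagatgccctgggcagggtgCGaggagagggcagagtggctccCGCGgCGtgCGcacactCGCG
Gabre, chrX:72274722-72274821, minus strand: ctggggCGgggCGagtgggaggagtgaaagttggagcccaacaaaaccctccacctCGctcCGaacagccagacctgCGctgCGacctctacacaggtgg
Gabrq, chrX:72825078-72825177, plus strand: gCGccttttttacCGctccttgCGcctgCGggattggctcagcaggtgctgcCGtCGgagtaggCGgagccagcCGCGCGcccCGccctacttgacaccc
Gabrg1 had 0 CG pairs in these 100 bases and 3 in the full window of 300 bases, from 250 before to 50 after the start. The windows of Gabrb1 at its first start, Gabre and Gabrq held 25, 24 and 23, against a median of 7 over the 32851 windows of the RefSeq table. A window was found for 6 of the 7 members, 9 windows in all, and Gabrd was not matched. TATAAA, searched on both strands, stood in the first of the 3 windows of Gabrb2 and in no other window of a member, against 13.6% of all windows. GGGCGG, searched on both strands, stood in that same window and in those of Gabre, Gabrg3 and Gabrq, against 35.7% of all windows. These matches describe the letters only.

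The signal of an array probeset depends on its probes, so that levels of different probesets cannot be ranked against each other. Each was set instead against 5222 probesets of intron controls, whose median was 114 and whose 95th percentile was 713 signal units. Rejecting 2 probesets whose SD exceeded 0.4 of their mean in at least 1 genotype left 91, and 45 of them (49.5%) had a mean wildtype signal above 713, against 45.1% of all probesets. Above the control median lay 86 of the 91, against 87.8% of all.

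The beta genes and Gabrg3 stood well above that background along most of their length, and Gabrd, Gabre and Gabrq did not. In Gabrb2, the beta subunit found most widely in the adult brain, 16 of 16 probesets lay above the 95th percentile, with mean wildtype signals between 882 and 4382. In Gabrb1 it was 8 of 10, between 250 and 2218, and in Gabrg3 11 of 13, between 408 and 2928. Gabrg1 had 7 of 14 above, between 232 and 2714. Only 1 of 12 kept probesets was above in Gabrq, although all 12 lay above the control median, between 153 and 940.5. In Gabre 1 of 16 was above, in the last exonic region at 949 ± 167 (SD, n = 6).

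**Figure D1:**
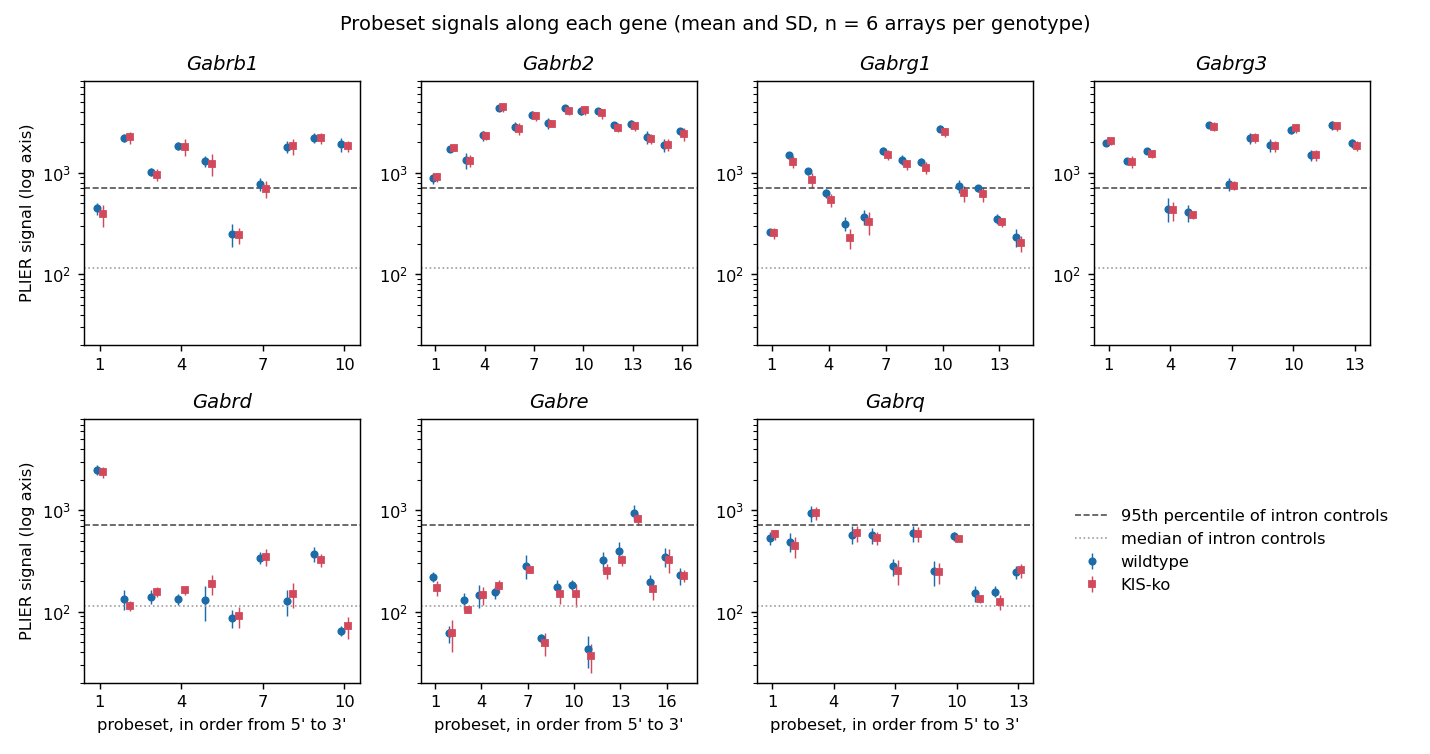
PLIER signal (log axis) of each kept probeset, in order from 5' to 3', for the 7 genes; points are means and bars SDs of 6 arrays per genotype, the dashed line the 95th percentile (713) and the dotted line the median (114) of the intron controls. All 16 probesets of Gabrb2 lie above the dashed line, whereas a single probeset does so in each of Gabrd, Gabre and Gabrq.

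In Gabrd a single probeset was bright. This probeset, at the 5' end (chromosome 4, 154772004 to 154772037 as the table lists positions), had a mean wildtype signal of 2493 ± 287 (SD, n = 6). The other 9 lay between 64.7 and 370, and 2 of the 10 were at or below the control median. The gene value of Gabrd is therefore mostly an average of probesets near background. Whether the bright probeset reads the same transcript as the others was not tested.

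As a check of the labels, Uhmk1 had a gene value of 10.97 in wildtype and 8.85 in KIS-ko brains. Its difference was -2.11 ± 0.068 (SE, limma, adjusted p = 2.9e-07), lower in 6 of 6 litters. The gene value used throughout is the mean over a gene's probesets of log2(signal + 16), and the constant makes differences of dim genes look smaller than they are. Medians of the main probesets lay between 491 and 546 signal units on the wildtype arrays and between 478 and 538 on the KIS-ko arrays. Array medians are not equal within litters: the KIS-ko array was lower in 5 of 6 litters, by 0.17 on the log2 scale in litter 6, and was higher by 0.10 in litter 4. Pairs of arrays correlated at 0.978 to 0.992 over log2 values.

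No member passed the adjusted threshold between genotypes, and the 7 genes did not move as a block. A lower mean was found for 6 of the 7 in KIS-ko brains, against 69.8% of all 17279 genes tested, and Gabrd had a higher one. One of 7, Gabrg1, had an unadjusted p below 0.05, against 6.16% of all genes in either direction and 4.34% in the lower direction, while 0 of 7 were past it in the higher direction, against 1.82%. At an adjusted p under 0.05 limma called 0 of 7, and 0.00579% of all genes, which is Uhmk1 alone. With arrays centred on their medians, 6645 of the 17279 genes were lower in place of 12062, and 4 of the 7 members, since Gabrb2 and Gabrg3 changed sign. Of all genes with an unadjusted p below 0.05 by limma, 314 of 1101 were then lower, in place of 750 of 1065. The ranges of the genotypes overlapped for all 7 members, and 0.208% of genes had ranges that did not overlap. In a homogenate of whole brain, fewer cells of a type and less RNA per cell cannot be told apart.

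**Figure D2:**
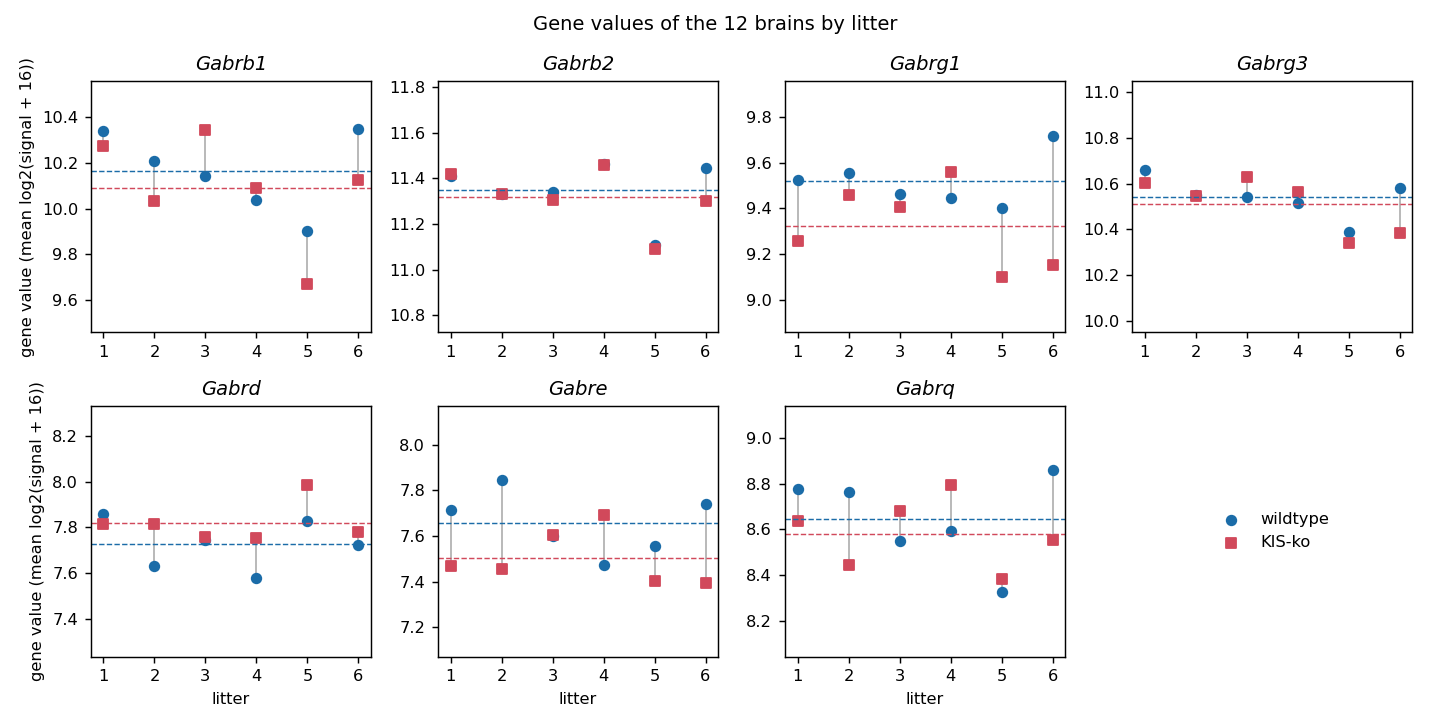
Gene value, the mean of log2(signal + 16) over kept probesets, of each brain by litter; circles are wildtype, squares KIS-ko, grey lines join littermates, dashed lines are group means (n = 6), and each panel spans the same range on its own level. The genotypes overlap in all 7 panels, and Gabrg1 is lower in the KIS-ko pup of 5 of 6 litters.

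Gabrg1, which encodes the gamma subunit expressed mainly in hypothalamus, amygdala, basal forebrain and glia, showed the largest difference among the members with the arrays as deposited. With centred arrays Gabrd (0.14) was as far from 0 as Gabrg1 (-0.14), and without dim probesets Gabre (-0.19) was slightly further than Gabrg1 (-0.18). The gene lies on the minus strand of chromosome 5, from 71142515 to 71233644. Wildtype gene values ran from 9.40 through a median of 9.49 to 9.72, and KIS-ko values from 9.10 through 9.33 to 9.56. Only the KIS-ko brains of litters 2, 3 and 4 reached into the wildtype range. The difference was -0.20 ± 0.079 (SE), with a 95% interval from -0.37 to -0.02, an unadjusted p of 0.0327 and an adjusted p of 0.685 by limma. As a ratio this is 0.873, between 0.773 and 0.986.

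Across litters the Gabrg1 difference was uneven. From litter 1 to litter 6 it was -0.27, -0.10, -0.06, 0.11, -0.31 and -0.57, lower in 5 of 6 litters, where 22.5% of all genes were lower in at least 5. The exact sign-flip permutation test over litters gave a two-sided p of 0.125, and 6 pairs cannot give less than 0.03125. The order follows in part that of the array pairs: the median gene differed by -0.05, -0.09, 0.00, 0.07, -0.05 and -0.11 in the same litters, and litter 4 was the one in which both were clearly higher. Relative to the median gene of each pair, Gabrg1 was at -0.16 ± 0.185 (SD, n = 6 litters), lower in 5 of 6, with an exact two-sided p of 0.0938. The part of the array medians in the Gabrg1 value was not tested beyond this. Litter 6 weighed most: without it the difference was -0.12.

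All 14 probesets of Gabrg1 were lower in KIS-ko brains, between -0.46 and -0.05, where 66.2% of all probesets were lower. That share depends on scaling. Of all 205469 probesets, 136092 were lower as deposited, 89536 with centred arrays and 104702 with arrays quantile-normalized again. The 14 probesets share the same 12 arrays and are not separate evidence. Of these, 4 had an unadjusted p below 0.05, against 6.63% of all probesets and 4.72% in the lower direction, and 0 an adjusted one. Bright ones were 3 of the 4: the second probeset of the first exonic region (71233356 to 71233420) at -0.21, that of the second region (71207196 to 71207292) at -0.29 and that of the sixth (71169321 to 71169397) at -0.20. In the probeset of the second exonic region, wildtype signals ran from 925 to 1172 with a median of 1029, and KIS-ko signals from 642 to 1058 with a median of 856. The remaining one, in the fourth region (71173672 to 71173705), had the largest difference, -0.46 ± 0.146 (SE, limma, adjusted p = 0.742), but a mean wildtype signal of only 316. Set against the mean of its gene on the same array, that probeset alone in Gabrg1 had an unadjusted p below 0.05, with a deviation of -0.26.

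Gabrg3, the other gamma gene here, whose product is found in few adult neurons, gave close values in both genotypes. It lies on the minus strand of chromosome 7, from 63979650 to 64642118. Wildtype values ran from 10.39 through a median of 10.55 to 10.66, and KIS-ko values from 10.34 through 10.55 to 10.63. The difference was -0.03 ± 0.051 (SE, limma, adjusted p = 0.836), with an interval from -0.14 to 0.08. It was lower in 4 of 6 litters, and none of its 13 probesets had an unadjusted p below 0.05. The sign of the difference turned with centred arrays (0.028), with arrays quantile-normalized again (0.0054) and without litter 6 (0.0051).

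The beta genes differed little between genotypes. Beta subunits line the GABA binding site with alpha and carry sites for kinases and for trafficking proteins in their long intracellular loop. Gabrb1 lies on the plus strand of chromosome 5, from 72091192 to 72527991. Its wildtype values ran from 9.90 through 10.18 to 10.35 and its KIS-ko values from 9.67 through 10.11 to 10.35. The difference was -0.07 ± 0.065 (SE, limma, adjusted p = 0.710), with an interval from -0.22 to 0.07. Litter differences went both ways, from -0.23 in litter 5 to 0.20 in litter 3, and both brains of litter 5 had the lowest value of their genotype. Leaving out 1 litter gave values from -0.13 (litter 3) to -0.04 (litter 5).

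Gabrb2 had the narrowest interval of the members. It lies on the plus strand of chromosome 11, from 42233259 to 42446045. Wildtype values ran from 11.11 through 11.38 to 11.46, and KIS-ko values from 11.09 through 11.32 to 11.46. The difference was -0.03 ± 0.045 (SE, limma, adjusted p = 0.794), and its interval, from -0.13 to 0.07, corresponds to ratios from 0.912 to 1.05. In 5 litters the pups differed by 0.04 or less, and in litter 6 by -0.14. Again both pups of litter 5 had the lowest value of their genotype. None of the 26 probesets of the beta genes had an unadjusted p below 0.05.

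Gabrd was the member with the higher mean in KIS-ko brains. It lies on the minus strand of chromosome 4, from 154759292 to 154772037. Wildtype values ran from 7.58 through 7.73 to 7.86, and KIS-ko values from 7.75 through 7.80 to 7.99. The difference was 0.09 ± 0.050 (SE, limma, adjusted p = 0.685), with an interval from -0.02 to 0.20, and it was higher in 5 of 6 litters. Relative to the median gene of each pair it was at 0.13 ± 0.108 (SD), higher in 5 litters and equal to it in litter 1, with an exact two-sided sign-flip p of 0.0625.

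The difference of Gabrd came from its dim probesets. Its bright probeset at the 5' end gave -0.06, and the gene value without probesets at or below 713 is that single probeset. Of the dim probesets, 2 had an unadjusted p below 0.05 with higher signals in KIS-ko brains. In the fourth exonic region (154762375 to 154762504) wildtype signals ran from 106 to 156 and KIS-ko signals from 146 to 189, a difference of 0.25. In the fifth (154761969 to 154762023) they ran from 56.3 to 183 and from 154 to 246, a difference of 0.55 ± 0.178 (SE). One in the eighth region (154759518 to 154759795) was lower, at -0.19. All 3 probesets lie below 713, and the first pair is near the control median of 114 in wildtype brains.

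Gabre and Gabrq flank Gabra3 on the X chromosome, and both are dim here. Gabre lies on the minus strand, from 69502798 to 69520040. Its wildtype values ran from 7.47 through 7.66 to 7.85, and its KIS-ko values from 7.40 through 7.46 to 7.69. The difference was -0.15 ± 0.078 (SE, limma, adjusted p = 0.685), with an interval from -0.33 to 0.02. It was lower in 4 of 6 litters, by 0.39 at most in litter 2, and higher by 0.22 in litter 4. Of its 16 probesets, 14 were lower, 2 of them with an unadjusted p below 0.05, at 222 and 321 signal units in wildtype brains. The bright probeset in the last region was at -0.19.

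Gabrq lies on the plus strand, from 70070800 to 70083870. Wildtype values ran from 8.32 through 8.68 to 8.86, and KIS-ko values from 8.38 through 8.59 to 8.79. The difference was -0.06 ± 0.077 (SE, limma, adjusted p = 0.767), with an interval from -0.23 to 0.11. It was lower in 3 litters and higher in 3, and ran from -0.12 without litter 4 to -0.011 without litter 2. Markers of the neurons in which epsilon and theta are known best were dim as well: 1 of 9 monoaminergic and 1 of 7 hypothalamic marker genes exceeded the 95th percentile of intron controls in mean signal.

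**Figure D3:**
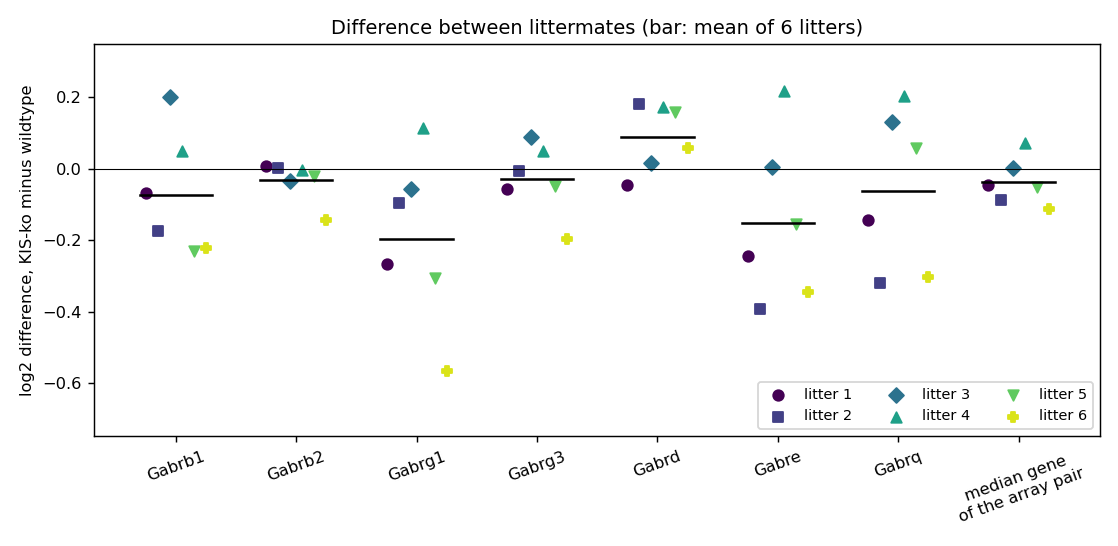
Log2 difference, KIS-ko minus wildtype, between the littermates of each litter for the 7 genes and for the median gene of the array pair; the bar is the mean of 6 litters. Litter 6 gives the lowest point of Gabrg1 (-0.57) and of the median gene (-0.11), and in litter 4 Gabrg1 (0.11), Gabre (0.22) and the median gene (0.07) are higher.

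In the litters with the most extreme array differences, most members lay on the same side as the arrays. In litter 6, where the KIS-ko array had the lowest median against its littermate, 6 of 7 members were lower, Gabrd being higher by 0.06. In litter 4, where the KIS-ko array had the higher median, 6 of 7 were higher, and Gabrb2 differed by 0.00. In litters 1, 2, 3 and 5, with array differences of -0.07, -0.14, -0.03 and -0.04, the members that were lower numbered 6, 5, 2 and 5 of 7. In litter 2 they ran from -0.39 for Gabre to 0.18 for Gabrd. The part of the array medians in these values was not tested.

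By the study's own measure, a mean of pair ratios over probesets in which those with more even ratios weigh more, Gabrg1 and Gabre again had the lowest values. Gabrg1 was at 0.896 ± 0.131 and Gabre at 0.928 ± 0.162 (SD over 6 pairs). Gabrb1, Gabrb2, Gabrg3 and Gabrq lay between 0.970 and 0.991, and Gabrd was at 1.06 ± 0.058. With centred arrays those 4 lay between 1.005 and 1.02. Without the filter on the relative standard deviation Gabre was above 1, through a probeset of 1 probe. With the filter and the arrays as deposited, the SD exceeded the distance from 1 for each member but Gabrd, where it was slightly smaller. This SD is the spread between pairs and not the error of their mean, so the comparison is no test. The study also ranked genes by a confidence value, which is not given here. It listed Gabrg1 among its top genes and measured it by Q-PCR.

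Along the genes, no probeset of a member passed the adjusted threshold, in its level or in its deviation from the gene. Of 91 probesets, 69 (75.8%) were lower in KIS-ko brains, against 66.2% of all (89536 of 205469 with centred arrays). An unadjusted p below 0.05 was found for 10 (4 to 22 with 1 litter left out), where 6.63% of all probesets had one. Of the 10, 8 were lower and 2 higher, against 4.72% and 1.91% of all probesets. That balance depends on scaling. Of all probesets with an unadjusted p below 0.05, 9703 of 13621 were lower as deposited, and 5602 of 12852 with centred arrays. At an adjusted p under 0.05, limma called 0 of 91 probesets and 0.00487% of all with the arrays as deposited. For deviations from the gene mean, which a change in splicing would alter, 9 of 91 had an unadjusted p below 0.05 against 6.11% of all, and 0 an adjusted one against 0.000985%. The deviation was lower in 5 of them and higher in 4, against 3.15% and 2.96% of all. In Gabrd there were 4 of the 9, in Gabre and Gabrq 2 each and in Gabrg1 1, and all 9 had a wildtype signal under 713. The Simes test of limma's diffSplice called 0 of 7 members and 1.86% of genes, and its lowest p among the members was that of Gabrd (unadjusted p = 0.00606, adjusted p = 0.144), where 12.5% of genes had an unadjusted p below 0.05.

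**Figure D4:**
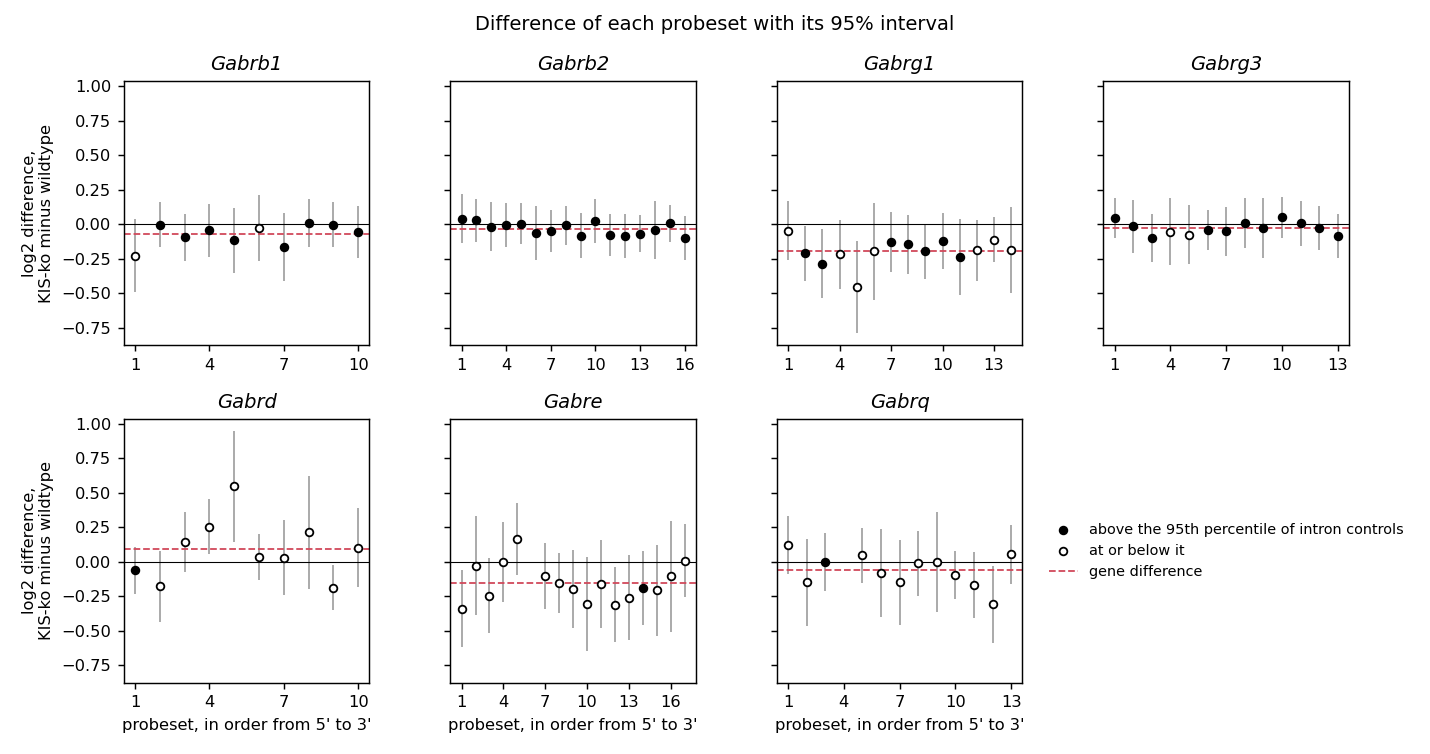
Log2 difference of each kept probeset, KIS-ko minus wildtype, with its 95% interval (limma), in order from 5' to 3'; filled points have a mean wildtype signal above 713, and the dashed line is the difference of the gene. All 14 points of Gabrg1 lie below 0, and the widest scatter is among the open points of Gabrd and Gabre.

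GABA-A receptor genes lie in clusters, and members of a cluster had different values. On chromosome 5 the order is Gabrg1, Gabra2, Gabra4 and Gabrb1, with differences of -0.20, -0.05, -0.12 and -0.07. On chromosome 11, Gabra6, a gene of cerebellar granule cells, was at 0.02 and dim, and Gabrb2 was at -0.03. Gabrg3 and Gabra5 on chromosome 7 were at -0.03 and -0.05, and Gabra3, between Gabre and Gabrq, was at -0.09. Differences between neighbours were not tested.

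**Figure D5:**
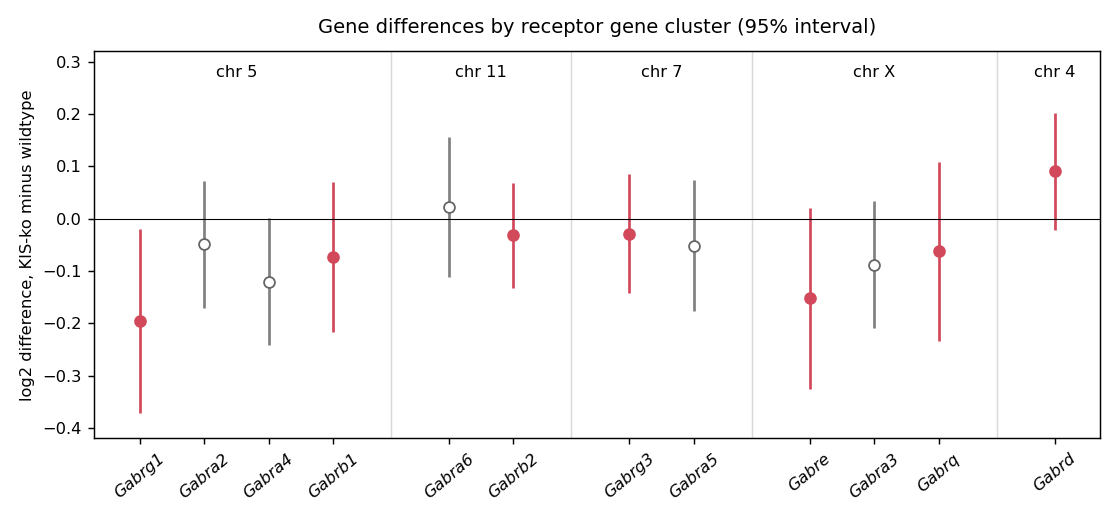
Log2 difference, KIS-ko minus wildtype, of the 7 members (filled) and 5 alpha subunit genes (open) with 95% intervals (limma), grouped by chromosome. Of the intervals plotted, only that of Gabrg1 (-0.37 to -0.02) leaves out 0, before adjustment.

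The other genes of GABA signalling differed by between -0.13 and 0.03, a range that Gabrg1, Gabre and Gabrd among the members exceeded. Of 40 such genes reported here, 36 were tested: 31 were lower and 5 higher, with a median of -0.07, against 69.8% lower and a median of -0.04 over all genes. The lowest adjusted p among them was 0.685 (limma). Of 5 alpha subunits, 4 were lower. Of 17 tested genes for clustering and trafficking of the receptor, 14 were lower, and the 17 lay between -0.12 and 0.03. The lowest p were those of Dmd, Trak2 and Hap1 (-0.12, -0.12 and -0.10). Dmd alone of the 17 was dim, with a mean signal at or below 713. Dystrophin, from Dmd, sits at inhibitory synapses, and Trak2 and Hap1 are motor adaptors that carry receptors.

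All 8 genes for GABA synthesis, transport and breakdown were lower, between -0.13 and -0.05, where 69.8% of all genes were lower. That share is for the arrays as deposited, and with centred arrays 6645 of 17279 genes were lower. Aldh5a1 and Abat, which break GABA down, were at -0.13 and -0.09, and the transporter Slc6a13 at -0.10. Gad1 and Gad2, which make GABA, were at -0.07 and -0.05. Of the chloride transporters, Slc12a2, which loads neurons with chloride, was at -0.13 ± 0.060 (SE, limma, adjusted p = 0.685) and Slc12a5, which extrudes it, at -0.05. Among the subunits of rarer receptors, Gabrr1 and Gabrp were at -0.03 and -0.10 and Gabrr2 at 0.01, all 3 dim. Gabbr1, of the GABA-B receptor, was at -0.05.

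Neuron markers were bright in all samples, as a check of the tissue, and no marker gene passed the adjusted threshold. Over all genes, 69.8% were lower and 6.16% had an unadjusted p below 0.05 (limma). With centred arrays 6645 of 17279 genes were lower, and the marker lists were not counted in that setting. Neuron markers had a mean gene value between 12.34 and 12.50 on wildtype and between 12.36 and 12.47 on KIS-ko arrays, with 5 of 7 lower. Inhibitory neuron markers ran from 10.53 to 10.72 and from 10.52 to 10.66, with 3 of 7 lower. Monoaminergic markers ran from 8.33 to 8.70 and from 8.29 to 8.46, with 8 of 9 lower and a median of -0.09. Of these, 1, Tph2, the enzyme of serotonin synthesis, had an unadjusted p below 0.05. Markers of astrocytes and radial glia ran from 10.93 to 11.18 and from 10.87 to 11.08. Gabrg1 is also known to be expressed in these cells. Of the markers, 8 of 8 were lower, with a median of -0.09, against -0.04 over all genes. Of these, 1 had an unadjusted p below 0.05, Gfap, the glial filament protein, at -0.27 and with a dim signal. Endothelial markers were lower in 5 of 5, and erythroid markers in 1 of 4. The mean gene value of the hypothalamic markers was at most 8.18 on wildtype and 8.20 on KIS-ko arrays. Of these markers, 4 of 7 were lower, and 1, the orexin gene Hcrt, had an unadjusted p below 0.05, at -0.12. The part of these cell types in the members' values was not tested.

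Across the 12 arrays, after each array was centred on its median gene and each genotype on its mean, members were not alike. Gabrd ran against the others, with Pearson's r between -0.81 with Gabrq and -0.32 with Gabrg3, and the highest r between members was 0.61, of Gabrb1 with Gabrg3 and with Gabrq. These points share arrays and litters and are descriptions. The gene value of Gabrd rests mostly on probesets near background, and what its r values reflect was not tested. Among 7049 bright genes, the most similar to Gabrb1 were Vps29 and Atrnl1 (r = 0.97 and 0.96), to Gabrb2 Grik2 and Sfxn3 (0.95 and 0.94) and to Gabrg3 Dis3l2 and Wbscr17 (0.96 and 0.94). For Gabrd they were Mapt and D19Wsu162e (0.96 and 0.95), and for Gabrq Nceh1 and Fntb (0.93 and 0.90). For Gabrg1 they were Lta4h and Kcnip4 (0.91 and 0.87), and for Gabre Mrps18c and Atp5o (0.91 and 0.88). Over these 7049 genes the best match had a median r of 0.94 and the next 0.92. Both matches of Gabrg1, Gabre and Gabrq were below the median of their own rank. Gabrd, Gabre and Gabrq are dim and not among the 7049, so that for them the medians are those of an unlike set.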

How the data were processed

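Total RNA of 12 newborn female brains, 6 wildtype and 6 KIS-ko, was measured on exon arrays. The authors quantile-normalized exon signals in the Affymetrix Expression Console and summarized probesets with PLIER, and the deposited intensity is this signal on the linear scale. Which genome build the positions refer to is not given in the sources used here.

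Main probesets with a symbol and a relative standard deviation of at most 0.4 in both genotypes were kept, 205469 for 17279 genes. log2(signal + 16) was tested with limma 3.58.1 in R 4.3.3 for genes, probesets and deviations from the gene mean, blocked by litter, with p-values adjusted by Benjamini-Hochberg over all features and a threshold of 0.05. Single genes had exact sign-flip tests in Python 3.11.15 with scipy 1.17.1. Scripts were tested on simulated data. Pairs are littermates by the labels and the methods; the correlation of their deviations lay between -0.11 and 0.47, against a mean of -0.02 between litters. Lists are described by counts, with no set test. The named genes are the 7 members, Uhmk1, 5 alpha subunits, up to 3 genes per list of lowest p, and the 2 most similar to each member; Gad1, Gad2 and Gabbr1 were added by their role. A further gene of these lists is not reported here and stands in no count of a list. Members, lists and rules were chosen with earlier results of these data known. Precision is limited by the number of arrays and by signal over background.

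As alternatives, the litter block was dropped, the pseudocount set to 1 or 64, and the filter removed or tightened to 0.2. Dim probesets were removed, arrays were centred or again quantile-normalized, genes were taken as medians of probesets, probesets were limited to those matching 1 place, moderation used trend and robust options, and litters were left out in turn.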

Additional observations from a re-analysis of the deposited data

Results flagged for a closer look

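In 5 of 39 sets of 6 values searched, 1 value stood far from the other 5 by Dixon's criterion, which chance meets in about 1 set of 20. The wildtype value of Gabrb2 in litter 5 was 11.11, the others lying between 11.33 and 11.46. The littermates of litter 6 differed by -0.14 in Gabrb2, the other pairs lying between -0.04 and 0.01. The KIS-ko value of Gabrd in litter 5 was 7.99, the others lying between 7.75 and 7.81. For Gabra2, litter 5 was low in both genotypes, at 10.72 in wildtype, where the others lay between 11.06 and 11.25, and at 10.69 in KIS-ko, where they lay between 11.04 and 11.23. Of the 5, 4 are thus brains of litter 5, whose genotypes are compared with each other within the litter.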

How the results depend on the processing

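No member had an adjusted p below 0.05 in any setting, the lowest being 0.136 for Gabre without litter 4. Of 119 differences of members under the 17 alternatives, 114 kept their direction. Centred arrays turned Gabrb2 to 0.025 and Gabrg3 to 0.028, quantile-normalized arrays turned Gabrg3 to 0.0054, and leaving out dim probesets turned Gabrd to -0.062. Leaving out each litter gave Gabrg3 values from -0.052 (litter 3) to 0.0051 (litter 6). Gabrg1 stayed between -0.26 (without litter 4) and -0.12 (without litter 6), and Gabre between -0.23 and -0.10. Gabrb1 ran from -0.13 (without litter 3) to -0.017 (centred arrays), with -0.04 without litter 5 or 6. Gabrq ran from -0.12 (without litter 4) to -0.00064 (without dim probesets), with -0.10 without litter 3, -0.011 without litter 2, -0.014 without litter 6 and -0.0074 with centred arrays. Gabrb2 was at -0.0096 without litter 6, and Gabrd reached 0.21 with the median over probesets.

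Without the litter block, 2 members in place of 1 had an unadjusted p below 0.05 (Gabre added), and the litter pairing changed no call of a member at the adjusted threshold. Leaving out 1 litter gave 0 to 2 such members, 0 without litter 1, 5 or 6 and 2 without litter 4. Over all 17279 genes the count went from 1065 to 3913 without litter 4, 550 without litter 6, 695 without litter 1 and 1112 without litter 5. Leaving out 1 litter gave 4 to 22 member probesets in place of 10 (6 without litter 1, 22 without litter 4, 5 without litter 5, 4 without litter 6). Over all 205469 probesets 13621 became 33090 without litter 4 and 7920 without litter 6. Member deviations numbered 4 to 12 in place of 9 (4 without litter 1, 5 without litter 2). Over all 202944 deviations 12395 became 10343 without litter 1, 9798 without litter 2, 24674 without litter 4 and 8554 without litter 6. Without dim probesets these counts of members were 3 probesets and 0 deviations. Over all features they were then 5252 of 91550 probesets and 4259 of 87135 deviations. Centred arrays moved the study's measure above 1 for Gabrb1 (1.005), Gabrb2 (1.02), Gabrg3 (1.02) and Gabrq (1.02), and to 1.12 for Gabrd. Without the filter it was 1.73 for Gabre, through a probeset of 1 probe with a wildtype signal of 0.0802 on 1 array. Against the control median 86 probesets in place of 45 were above. Over all features, calls at the adjusted threshold ranged from 1 to 5 genes (main 1), 9 to 91 probesets (main 10) and 0 to 19 deviations (main 2). Causes of these shifts were not tested. Dim signals limit Gabrd, Gabre and Gabrq most.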
